A study of Rattus norvegicus with 38 samples.

Results

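H3K27 acetylation in a stretch of rat chromosome 3 that holds the genes of both interleukin-1 cytokines and of the signal regulatory proteins was described from the H3K27ac peak lists of the motor cortex and the substantia nigra (SN). The members were all listed peaks with a midpoint on chromosome 3 from position 116000000 to 118000000 of mRatBN7.2. They numbered 130 of the 80765 motor cortex peaks and 125 of the 70744 SN peaks, or 255 of 151509 in both lists. The window itself was chosen by earlier results on these data, with the rotenone comparison of this stretch known, whereas membership within it was defined by position alone, so the number of members is a description. No motor cortex or SN peak crossed an edge of the window. The last peaks before it ended at 115998749 in the motor cortex and 115998708 in the SN, and the first members began at 116012597 and 116010677. At the other edge the last members ended at 117996622 and 117999464, and the next peaks began at 118029000 and 118005758.

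ChIP-seq was performed on male Lewis rats aged 8 to 10 months, of which 5 received rotenone, a pesticide that inhibits mitochondrial complex I, at 2.8 mg/kg by intraperitoneal injection each day for 21 days, and 4 received vehicle. The control samples are labelled VEH in their titles and PBS as their treatment, while the protocol names Miglyol, and the word vehicle is used here. Tissue was taken 24 h after the last injection, and the SN samples are labelled as ventral midbrain. The 38 sequencing runs comprise 34 runs of chromatin from these 9 rats and 4 runs of input DNA. The input runs are all labelled as cortex and none as SN. The 5 rotenone rats have 8 motor cortex and 10 SN runs, since not every motor cortex sample of theirs has a run on a second lane. The 4 vehicle rats have 8 runs in each region. Reads of rotenone and vehicle rats were combined before peaks were found, so that each region has a single list of positions without a height, a count or a score. By the study's own account the motor cortex was sequenced to a higher coverage than the SN, so brain region and depth cannot be told apart in any width, count, length or overlap compared between the lists. The deposited SN list is also much longer than the number of SN peaks that the study gives, whereas the motor cortex list is close to it, and the reason is not given in the sources used here. The lists hold no measure of rotenone against vehicle, no read counts and no spread between rats, and every value below is a description of 1 pooled list per region without a replicate error or a test. The tissue of origin could not be checked against marker genes, because the lists hold no expression values. In bulk tissue, fewer cells of a type and less acetylation per cell cannot be told apart.

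Acetylation of lysine 27 of histone H3 marks active promoters and enhancers. Il1a and Il1b encode the cytokines IL-1 alpha and IL-1 beta, which signal through the same receptor and drive inflammation. In the brain, microglia are a main source of both. IL-1 beta is made as an inactive precursor that caspase-1 cleaves in the inflammasome, while the precursor of IL-1 alpha is already active. Sirpa encodes an inhibitory receptor of myeloid cells and neurons that binds CD47, and Sirpb3 encodes a further member of the same receptor family. In the RefSeq gene order of the later assembly GRCr8, Il1a, Il1b, Sirpb3, Sirpa and Pdyn follow each other with no other protein-coding gene between them. Positions in GRCr8 are not comparable with those of the peaks.

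The promoters of Il1a, Il1b and Sirpb3 are shown because these genes give the window its name. That of Nop56 is shown because a promoter annotation was at hand for its peaks in both regions. Only intervals that the study lists as differential carry an annotation. SN peaks at other promoters may lack one for that reason, so this is not a positional trait of Nop56. Each sequence runs from 250 bases before to 50 bases after the RefSeq start site in GRCr8, 5′ to 3′ on the strand of the gene, at chr3:136989968-136990267 (minus strand) for Il1a, chr3:137036532-137036831 (minus strand) for Il1b, chr3:137216385-137216684 (minus strand) for Sirpb3 and chr3:137929929-137930228 (plus strand) for Nop56. Capitals mark matches on either strand to the TATA box (TATAAA), AP-1 (TGANTCA), the PU.1 core (GAGGAA), the GC box (GGGCGG), the CCAAT box (CCAAT), none of which overlap here. The consensus of NF-kB was also searched and was found in none of the 4 promoters.
Il1a: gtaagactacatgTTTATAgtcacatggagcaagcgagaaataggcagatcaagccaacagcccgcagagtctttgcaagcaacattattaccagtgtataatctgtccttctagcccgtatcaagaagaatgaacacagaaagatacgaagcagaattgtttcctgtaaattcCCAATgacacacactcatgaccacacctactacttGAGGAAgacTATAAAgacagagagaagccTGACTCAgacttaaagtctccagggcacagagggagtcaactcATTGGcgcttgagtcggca
Il1b: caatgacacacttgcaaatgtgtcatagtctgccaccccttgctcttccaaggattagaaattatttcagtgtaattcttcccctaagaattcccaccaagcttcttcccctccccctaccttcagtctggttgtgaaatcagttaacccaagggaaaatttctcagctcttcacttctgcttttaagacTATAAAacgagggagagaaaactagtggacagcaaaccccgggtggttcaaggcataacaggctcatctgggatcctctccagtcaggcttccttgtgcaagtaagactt
Sirpb3: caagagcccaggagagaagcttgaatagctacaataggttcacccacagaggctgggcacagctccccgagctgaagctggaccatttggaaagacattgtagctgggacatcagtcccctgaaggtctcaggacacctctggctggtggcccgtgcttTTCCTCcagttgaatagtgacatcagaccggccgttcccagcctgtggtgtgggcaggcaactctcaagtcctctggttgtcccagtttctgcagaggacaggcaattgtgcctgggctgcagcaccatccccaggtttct
Nop56: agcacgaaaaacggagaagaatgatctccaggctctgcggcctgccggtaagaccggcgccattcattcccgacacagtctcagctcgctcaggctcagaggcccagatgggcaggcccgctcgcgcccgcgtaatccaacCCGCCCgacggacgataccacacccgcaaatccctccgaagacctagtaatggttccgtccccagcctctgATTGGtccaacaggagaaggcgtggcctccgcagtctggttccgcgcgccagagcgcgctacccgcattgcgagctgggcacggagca

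The Il1a promoter held matches to 4 of these motifs. A TATA box began 32 bases before the start site, a PU.1 core 41 bases before it and an AP-1 match 12 bases before it, all on the strand of the gene. Further matches were a second TATA box on the opposite strand and CCAAT boxes on each strand. The Il1b promoter held a single match, a TATA box 60 bases before the start site. The Sirpb3 promoter held a PU.1 core on the opposite strand, 91 bases before the start site, and no other match. Nop56 held a GC box and a CCAAT box, both on the opposite strand. Among 33469 promoters of the same length, a TATA box was found in 14.2%, AP-1 in 7.33%, the PU.1 core in 27.6%, the GC box in 33.1%, the CCAAT box in 37.5% and the NF-kB consensus in 0.362%. A match is a run of letters and does not show binding. The promoters also differed in CpG dinucleotides, of which Nop56 had 30, more than 89.7% of promoters, whereas Il1a had 6, Sirpb3 had 4 and Il1b had 2, against a median of 7.

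Motor cortex members covered 231 kb, or 11.6% of the window, and SN members covered 155 kb, or 7.74%. The ratio of these lengths was 1.49, against 1.39 over the whole lists. The median width was 1236 bp in the motor cortex and 959 bp in the SN, close to the 1245 and 994 bp of the whole lists. Widths ran from 207 to 14240 bp in the motor cortex and from 183 to 7636 bp in the SN. Among the SN members, 2 (1.6%) reached 5000 bp, compared with 3.57% of all SN peaks, and so small a number describes these members only. In the motor cortex 8 members (6.15%) did, compared with 5.2% of the whole list.

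**Figure D1:**
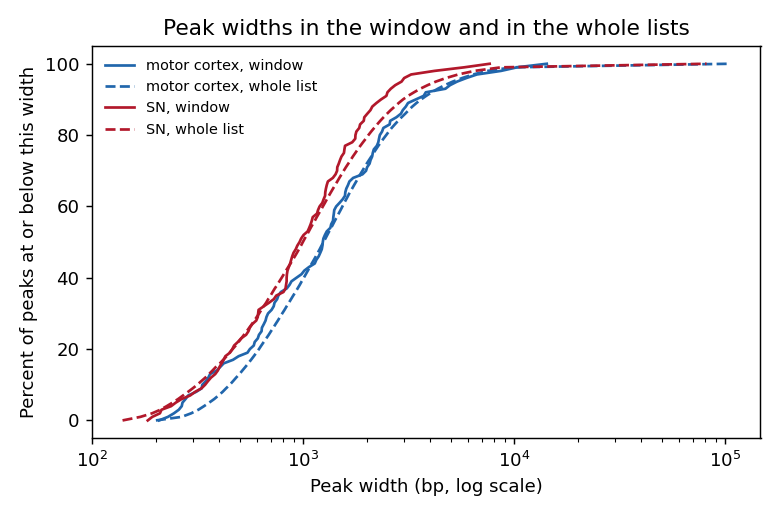
Cumulative share of peaks (y axis, percent) at or below each width (x axis, bp, log scale) for window members (solid lines) and whole lists (dashed lines) of the motor cortex (blue) and the SN (red). The medians of members lie at 1236 and 959 bp, near those of the whole lists, and the solid SN line ends at 7636 bp.

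The window held more peaks than most of its size in both regions. Among 901 windows of 2 Mb with at least 20 peaks in each list, it ranked 121 by number of motor cortex peaks and 125 by number of SN peaks, with medians over windows of 74 and 64. By covered length it ranked 176 and 227. The bases shared by both regions came to 118.4 kb, or 51.2% of the motor cortex and 76.4% of the SN length. As a share of the bases covered in either region this was 44.2%, which equals the 44.2% of the whole lists to the digits given.

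Of the 130 motor cortex members, 81 (62.3%) overlapped an SN peak by at least 1 bp, compared with 55.1% of the whole list. Of the 125 SN members, 88 (70.4%) overlapped a motor cortex peak, compared with 65.3%. Members found in both regions were wider, with a median of 1395 bp against 787 bp for the 49 found in the motor cortex alone. In the SN the medians were 1268.5 bp and 554 bp for the 37 found there alone. The whole lists had a like gap, with 1589 against 915 bp in the motor cortex and 1362 against 572 bp in the SN. A wider peak meets a minimum overlap of 1 bp more easily, so the overlap rule by itself favours such a gap. Its part in the gap was not tested. More than 1 SN peak lay under 13 motor cortex members (10%), and more than 1 motor cortex peak under 8 SN members (6.4%), compared with 6.09% and 5.74% of the whole lists. The remaining overlaps included 54 pairs of a single peak in each region. The motor cortex peak was the wider one in 34 of these pairs (63.0%) and the SN peak in 20, with a median ratio of 1.08 and a range from 0.175 to 3.28. Over the 31838 such pairs of the whole lists it was wider in 58.2%, with a median ratio of 1.06, near the values of the window. Their starts lay a median of 133 bp apart and their ends 132 bp.

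**Figure D2:**
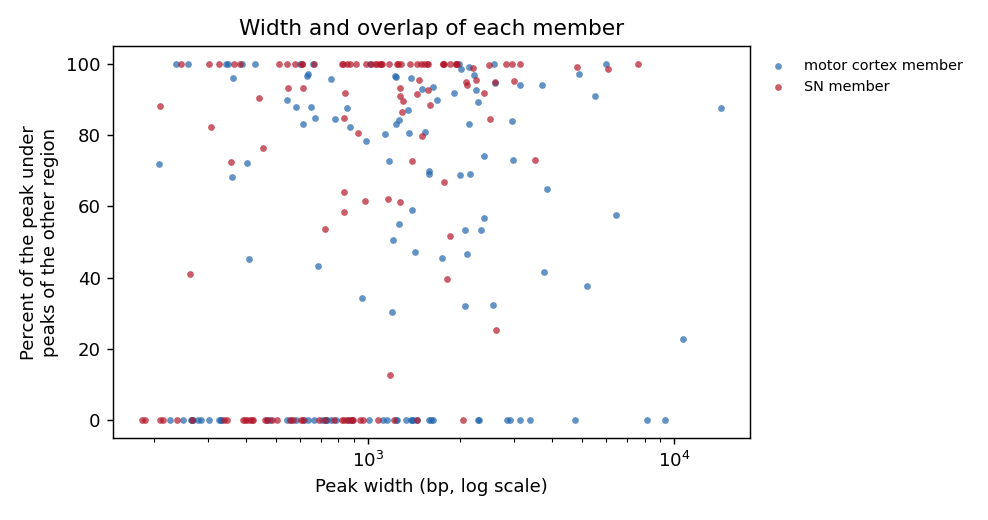
Width (x axis, bp, log scale) and percentage under peaks of the other region (y axis) of each motor cortex (blue) and SN (red) member, with 1 point per peak. The points at 0 are the 49 motor cortex and 37 SN members found in 1 region, which include motor cortex peaks of 9354 and 8129 bp.

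Peaks were unevenly placed along the window. The longest stretch without a peak in either list ran for 239 kb from 117138490 to 117377453. The next ran for 123 kb from 117499026 to 117621603 and the third for 99 kb from 116094096 to 116193091. The first of these lies between peaks that the study's annotation names for Stk35, a serine/threonine kinase, and for Nop56. In the RefSeq order, Tgm3 and Tgm6, which encode transglutaminases, Snrpb, which encodes a core spliceosomal protein, and Tmc2, a channel component of inner ear hair cells, lie between these genes. The first 1 Mb of the window, which holds the cytokine and receptor genes, had 76 motor cortex and 65 SN members, with 143 and 87.3 kb. The last 1 Mb had 54 and 60 members, with 87.8 and 67.6 kb. In the former, 29 of the 76 motor cortex and 14 of the 65 SN members were found in 1 region only. In the latter, 20 of 54 and 23 of 60 were. Over the whole lists such peaks made up 44.9% of the motor cortex and 34.7% of the SN peaks.

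**Figure D3:**
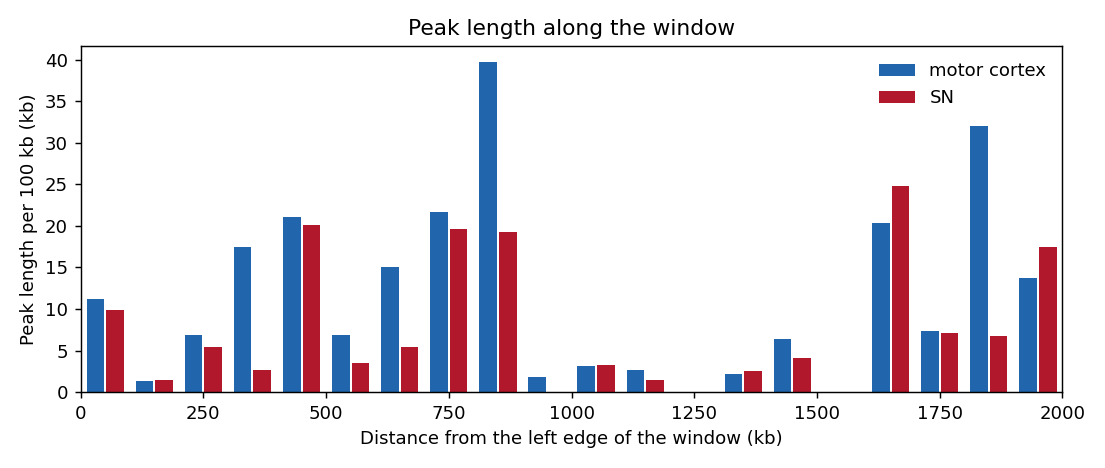
Summed peak length (y axis, kb) in each 100 kb of the window, placed by peak midpoint, against the distance from its left edge (x axis, kb), for the motor cortex (blue) and the SN (red). The tallest motor cortex bar, 39.7 kb, covers the 100 kb from 116.8 Mb, where the SN has 19.3 kb, and the tallest SN bar, 24.8 kb against 20.4 kb in the motor cortex, covers the 100 kb from 117.6 Mb.

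Gene names are those of the study's annotation of the same intervals, which was at hand for 26 motor cortex and 4 SN members and covers 14 genes. Only intervals listed in the study's differential tables carry a name, so nothing is read from which members have one. All of Il1a, Il1b and Sirpb3 are among the names. The peaks named for Tmem87b, Ttl, Slc20a1, Il1b, Sirpa, Pdyn and Stk35 are all annotated as distal intergenic. Such a name does not place the peak at the gene. The names include 5 members for Sirpb3, 4 each for Tmem87b and Slc4a11, and 3 for Il1b. These numbers count intervals that the study lists as differential and are not the number of peaks at a gene. The share of such intervals over the whole lists was not computed. The numbers therefore rank no gene, and the 26 and 4 named members set neither the window nor a region apart.

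**Figure D4:**
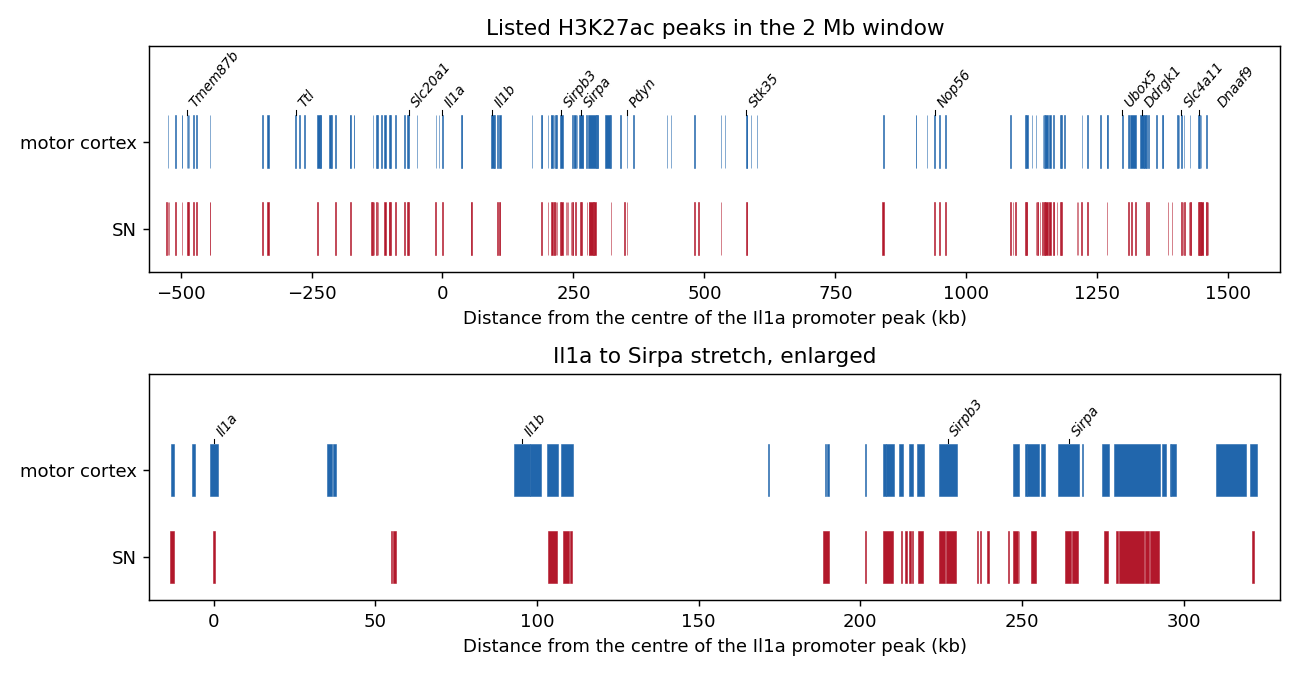
Listed peaks of the motor cortex (blue) and the SN (red) drawn to scale against the distance (x axis, kb) from the centre of the Il1a promoter peak, over the whole window (top) and from Il1a to beyond Sirpa (bottom). Each gene name stands over the widest peak that carries it, and the bottom panel shows the motor cortex peaks of 4740 and 3381 bp at the Il1b cluster and the one of 9354 bp towards the right, none with an SN peak beneath.

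Both regions had a peak at the position annotated in the motor cortex as the Il1a promoter, and the peaks were of unequal width. The motor cortex peak measured 2563 bp from 116536254 to 116538816, wider than 81.3% of that list. The single SN peak there measured 827 bp, from 116537142 to 116537968, and lay wholly inside the motor cortex peak, of which it covered 32.3%. The SN peak carries no annotation of its own, so whether it lies on the start site could not be determined. Peaks were few around it, with 5 in the motor cortex and 4 in the SN in the 100 kb from 116.5 Mb, covering 6.93 and 3.46 kb.

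The 91.7 kb between the Il1a peak and the first peak named for Il1b held 2 peaks in each region, and none of them overlapped. The motor cortex peaks ran from 116572588 to 116574162 (1575 bp) and from 116574266 to 116575415 (1150 bp). The SN peaks ran from 116592375 to 116592765 (391 bp) and from 116592963 to 116594042 (1080 bp). The wider SN peak was among the 5 widest members found in the SN alone. Which of these peaks, if any, lies on the Il1b promoter was not determined, since no gene annotation of mRatBN7.2 was at hand.

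The cluster named for Il1b, annotated as distal intergenic, comprised 4 neighbouring motor cortex peaks, 3 of which carry the name. The first, from 116630510 to 116635249, measured 4740 bp, more than 94.2% of the motor cortex list, and had no SN peak beneath it. The second, from 116635399 to 116638779 and without a name, measured 3381 bp and also had none. The third, from 116640771 to 116643903 (3133 bp), matched a single SN peak from 116640836 to 116643780 (2945 bp), which covered 94% of it. The last, from 116644946 to 116648774 (3829 bp), lay over 2 SN peaks of 1941 and 543 bp, which covered 64.9%. The SN thus had peaks under the latter pair only, and the motor cortex length from 116.6 to 116.7 Mb was 15.1 kb against 5.43 kb in the SN. Beyond this cluster neither list had a peak for 60.3 kb, up to 116709033.

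The stretch from the first peak named for Sirpb3 to the peak named for Pdyn held the 100 kb with the greatest motor cortex length in the window, though not the greatest SN length. With the Pdyn peak and its SN partner counted, it had 25 motor cortex peaks from 116709034 to 116890580 covering 61.3 kb. The SN had 27 peaks from 116725894 to 116890484 covering 38.9 kb. A partner was lacking for 9 of the 25 and 6 of the 27, compared with 44.9% of all motor cortex and 34.7% of all SN peaks. The motor cortex peak annotated as the Sirpb3 promoter measured 5492 bp, from 116761823 to 116767314. Beneath it were 2 SN peaks, of 1857 bp from 116761944 to 116763800 and of 3134 bp from 116763961 to 116767094, which together covered 90.9% of it. Of the intronic motor cortex peaks named for Sirpb3, the one from 116755216 to 116757120 (1905 bp) was 91.9% covered by an SN peak of 1751 bp. A narrower one, from 116727134 to 116727768 (635 bp), was 97% covered by an SN peak of 1856 bp, which extended well beyond it. The narrowest, from 116709034 to 116709258, measured 225 bp, had no SN peak and was narrower than nearly the whole list, of which 0.189% was narrower still. In the SN, the peak named for Sirpb3 lay in an intergenic position from 116784745 to 116786331 (1587 bp) and was 88.3% covered by a motor cortex peak of 1680 bp. Just before it, 4 SN peaks of 403, 347, 823 and 484 bp between 116773626 and 116783668 had no motor cortex peak.

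The widest member of either list followed. It was a motor cortex peak of 14240 bp from 116816002 to 116830241, wider than 99.6% of that list, and 87.6% of it was covered by 4 SN peaks of 577, 7636, 1440 and 2816 bp. The 7636 bp SN peak, from 116817677 to 116825312, was the widest SN member. It is preceded by a motor cortex peak named for Sirpa, from 116798832 to 116805255 (6424 bp), which was 57.5% covered by SN peaks of 1931 and 1762 bp. Further on, the motor cortex peak from 116847645 to 116856998 (9354 bp, wider than 98.9% of the list) had no SN peak in the deposited list, where 17 consecutive peak numbers are skipped around this position.

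The motor cortex peak named for Pdyn, which encodes prodynorphin, the precursor of the dynorphin opioid peptides, is annotated as distal intergenic. It ran from 116889444 to 116890580 (1137 bp) and was 80.4% covered by an SN peak of 914 bp. In the 100 kb from 116.9 Mb the motor cortex had 3 peaks covering 1.82 kb and the SN had none. One of them, from 116973474 to 116973940 (467 bp), carries the name Stk35. The other Stk35 peak, from 117117667 to 117118335 (669 bp), was 84.9% covered by an SN peak of 1267 bp.

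Nop56, a core protein of small nucleolar ribonucleoproteins, had the promoter peak most alike between the regions of those named. It ran from 117475977 to 117478197 (2221 bp) in the motor cortex and from 117476047 to 117478302 (2256 bp) in the SN. Each covered over 95% of the other, at 95.3% of the SN peak and 96.8% of the motor cortex peak. The contrast with the Il1a peaks, where 32.3% of the motor cortex peak was covered, rests on 1 pooled list per region and was not tested. Promoter peaks carry a name only where the study lists them as differential. Names were at hand in both regions for Nop56 and in the motor cortex alone for Il1a. The examples were thus chosen by those results, and nothing is read from the contrast.

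At the left edge, 4 motor cortex peaks named for Tmem87b, which encodes a transmembrane protein, lay between 116049261 and 116053599 with widths of 1425, 1265, 236 and 685 bp. Beneath them were SN peaks of 1292, 307 and 833 bp, whose edges did not follow those of the motor cortex peaks. The motor cortex peak named for Ttl, a tubulin tyrosine ligase, ran from 116256265 to 116258558 (2294 bp) without an SN peak. From 116.3 to 116.4 Mb the motor cortex had 10 peaks covering 17.5 kb, and the SN had 2 peaks covering 2.63 kb. Of these 10 motor cortex peaks 6 had no SN peak, compared with 44.9% of the whole motor cortex list. The next 100 kb holds the distal intergenic peaks named for Slc20a1, which encodes a sodium-dependent phosphate transporter. In it the regions had 13 and 14 peaks covering 21.1 and 20.1 kb. There the SN peak named for Slc20a1, from 116404418 to 116405599 (1182 bp), shared 149 bp with a motor cortex peak of 207 bp. The motor cortex peak of that name, from 116471846 to 116474439 (2594 bp), was 94.7% covered by an SN peak of 2590 bp. Between them, a motor cortex peak of 4877 bp from 116425062 to 116429938 and an SN peak of 4792 bp from 116425197 to 116429988 nearly coincided.

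Towards the right edge the regions differed in which one had more peaks. From 117.6 to 117.7 Mb the SN had 17 peaks and the motor cortex had 9. In this stretch 7 of the 17 SN peaks had no motor cortex peak, compared with 34.7% of the whole SN list. This stretch holds the second widest SN member, from 117688338 to 117694431 (6094 bp), which nearly coincided with a motor cortex peak of 6003 bp. From 117.8 to 117.9 Mb the motor cortex had 10 peaks covering 32 kb and the SN had 6 covering 6.79 kb. Here a motor cortex peak of 10671 bp from 117850722 to 117861392 was covered to 22.9%, by SN peaks of 875 and 1565 bp. It is followed by the peak named for Ddrgk1, which encodes a protein of the UFMylation pathway, from 117869089 to 117877217 (8129 bp, annotated as 3′ UTR), and by one of 3132 bp from 117877379 to 117880510, both without an SN peak. At this position a single SN peak number is skipped. The Ddrgk1 promoter peak, from 117880660 to 117882813 (2154 bp), was 69% covered by an SN peak of 1487 bp. Ubox5, which encodes a U-box ubiquitin ligase, had an intronic motor cortex peak from 117834170 to 117836452 (2283 bp) without an SN peak.

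At the right edge, in the 100 kb from 117.9 Mb, 19 SN peaks covered 17.4 kb and 13 motor cortex peaks covered 13.7 kb. No partner was found for 11 of the 19 and 6 of the 13, compared with 34.7% of all SN and 44.9% of all motor cortex peaks. The SN peak named for Slc4a11, a membrane transporter, ran from 117947192 to 117949801 (2610 bp) in an exon. The motor cortex peak beneath it, from 117948348 to 117949008 (661 bp), carries the same name and covered 25.3% of it, so that here the SN peak was the wider one. The peak named for Dnaaf9, an assembly factor of axonemal dynein, ran from 117982269 to 117983505 (1237 bp) in the motor cortex and was 96.4% covered by an SN peak of 1496 bp. The widest member found in the SN alone, 2043 bp from 117986658 to 117988700, lay just beyond it.

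Together the 8 motor cortex members of at least 5000 bp made up 28.3% of the motor cortex length in the window. SN peaks covered 48.2% of their bases, near the 51.2% for all motor cortex members and the 52.6% for the whole motor cortex list. Among these 8 members, 2 had no SN peak, the 9354 bp peak beyond the one named for Sirpa and the 8129 bp peak named for Ddrgk1. The same share over all motor cortex peaks of at least 5000 bp was not computed, so this count describes these members only.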

How the data were processed

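H3K27ac ChIP-seq peaks of the motor cortex and SN were analysed. Per the study's methods and processing notes, the authors used Trim Galore 0.6.7 for trimming, Bowtie2 2.4.4 for alignment (mRatBN7.2) and Picard 2.6.0 to discard duplicate reads. MACS2 2.2.7.1 was then run once per region on reads pooled over all rats, against pooled input. The deposited files hold peak positions only, read as BED intervals and printed counted from 1, and read counts behind each peak are not in them. Overlaps (at least 1 bp), widths and windows were computed with Python 3.11.15, numpy 2.4.6 and pandas 2.3.3, and figures were drawn with matplotlib 3.10.9. The overlap and merging steps were checked on simulated peaks. The window, gene lists and named peaks were chosen with earlier results of these data known. The peaks named singly are the widest members, the widest found in 1 region, those with gene names and those at the edges, and some others along the window were named after their values were seen. Gene names and feature words come from the study's annotation of the same intervals, read from page images. The text for 1 interval was left out because RefSeq does not place that gene in this neighbourhood. The study's fold changes, p-values and distances were not used. Promoter sequences and gene order are from RefSeq, assembly GRCr8. No test was run, since the lists hold no value for each rat.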

Additional observations from a re-analysis of the deposited data

Results flagged for a closer look

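The peak names carry numbers that run in order along each chromosome in 100% of steps, and numbers are skipped, so the lists omit some numbered entries; what those entries were is not known here. The share of numbers present among the members' range was 58.8% in the motor cortex and 49.4% in the SN, near the 58.2% and 47.6% of the whole lists. This column enters no comparison of the report and was looked at after the members had been seen. A gap between neighbouring peaks of a list was noted where more than 3 numbers were skipped and a member of the other region lay within it. The SN list skips 17 numbers between 116829960 and 116858698, more than 99.98% of its gaps, where the motor cortex has 4 peaks that include the one of 9354 bp. A list without heights measures absence of SN signal neither there nor elsewhere. In the SN list 1 number is skipped around the 8129 bp peak named for Ddrgk1 and 3 around the peaks of 4740 and 3381 bp in the Il1b cluster. Whether SN signal was absent there is likewise not measured. Smaller numbers were skipped in the SN list between 116859364 and 116884988 (4), 117119665 and 117377453 (4), 117654121 and 117669970 (7) and 117930409 and 117947191 (4), and in the motor cortex list between 117019590 and 117068747 (5). In all, 38 of the 49 motor cortex members without an SN peak and 28 of the 37 SN members without a motor cortex peak lay in gaps with at least 1 skipped number, which is 77.6% and 75.7%. Over the whole lists the same shares were 84.1% of 36265 motor cortex peaks and 78.7% of 24484 SN peaks, so the members did not exceed them. The part of skipped entries in the counts of peaks found in 1 region was not tested.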

How the results depend on the processing

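Of the 15 alternatives run, 8 gave values within 1.5 times the reported ones, and 7 moved by more. Keeping peaks of at least 1000 bp left 76 motor cortex and 60 SN members. Merging neighbours across gaps of up to 1 kb left 83 SN regions, and 94 in the motor cortex. A reciprocal overlap of 50% left 52 shared members in each region, and keeping peaks of at least 1000 bp in both lists left 44 shared motor cortex and 49 shared SN members; each of these settings counts fewer peaks by its construction. The ratio of motor cortex to SN length ran from 1.30 (last 1 Mb of the window only) to 1.72 (peaks of at least 1000 bp). No paired analysis was possible because the lists pool all rats, and for the same reason no replicate could be left out. The lists hold no counts, and since the study describes higher read coverage in the motor cortex than in the SN, a peak listed in the motor cortex alone cannot be told apart from one missed at the lower SN depth.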
